A study of Drosophila melanogaster with 15 samples.

Results

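The genes described here encode the subunits of the Mediator complex of Drosophila melanogaster. They were taken by symbol from a fixed list of 29 genes (MED1, MED4, MED6 to MED11, MED14 to MED28, MED30, MED31, skd, kto, Cdk8 and CycC) out of 17481 genes in the count tables. Of these, 28 were among the 11424 genes tested. MED9 was the exception, with 0 reads in all 15 libraries. In the annotation used here for positions, MED9 overlaps CG42518 on the same strand. Reads that fit both genes are assigned to neither by this kind of counting, so its count is not read here as its level. That annotation is newer than the one used for counting, and whether the overlap is the cause was not tested.

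Mediator is the coactivator that carries signals from DNA-bound transcription factors to RNA polymerase II at promoters. Its head and middle modules contact the polymerase, its tail module receives most activators, and MED14 runs through all of them as a backbone. A separable kinase module, made of the cyclin-dependent kinase Cdk8, its partner CycC and the large proteins encoded by skd (MED13) and kto (MED12), binds the core reversibly and keeps the polymerase away while bound.

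The libraries came from Kc167 cells, an embryonic line of D. melanogaster with hemocyte (blood cell) character, treated with double-stranded RNA for 6 days. RNAi against GST or GFP sequences served as the control (CTRL). The other groups were RNAi against H2A.V, the only H2A variant of the fly; against DOM-A or DOM-B, the splice isoforms of the DOMINO remodelling ATPase that are found in separate complexes; and against TIP60, the acetyltransferase found together with DOM-A. Each of the 5 groups had 3 replicates, nothing in the labels says that these were separate cultures, and D. virilis cells were added to every sample before RNA extraction as a spike-in. The question put to the Mediator genes was whether their modules responded alike to the loss of the histone variant, of each remodeller isoform and of the acetyltransferase.

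The libraries held between 8662976 and 14679536 reads on D. melanogaster genes, and D. virilis made up between 14.9% and 17.9% of all gene reads. The tested Mediator genes had between 63 and 3780 reads per library. The targeted Tip60 gene stood at normalized counts of 263, 245 and 279 in the CTRL libraries and 35.0, 43.1 and 47.5 after TIP60 RNAi. His2Av, which encodes H2A.V, stood at 11464, 12354 and 10448 in CTRL and 224, 1958 and 277 after H2A.V RNAi, so replicate 2 kept more of it. Gene counts pool the isoforms of dom and gave no check of the DOM-A and DOM-B labels. All 6 hemocyte and Kc167 markers had reads in every group. Their summed normalized count was 21093 to 26493 in CTRL, 16073 to 35450 after H2A.V RNAi, 80256 to 94258 after DOM-A RNAi, 43654 to 54909 after DOM-B RNAi and 28317 to 90600 after TIP60 RNAi, where replicate 2 was the lowest. The germline markers vas, nanos and aub summed to 2390 to 2876 in CTRL, 906 to 1398 after H2A.V RNAi, 1121 to 1830 after DOM-B RNAi, 1551 to 2108 after DOM-A RNAi and 1861 to 2537 after TIP60 RNAi, and within the list every H2A.V library lay below all CTRL libraries for aub and above them for vas and nanos. The 3 neuron markers summed to 785 to 1104 in CTRL, 777 to 1475 after H2A.V RNAi, 1213 to 1241 after DOM-B RNAi, 553 to 718 after DOM-A RNAi and 432 to 671 after TIP60 RNAi. The muscle markers summed to at most 80.6 and the fat body markers to at most 3.78 in any library. The part of these shifts in the Mediator values was not tested. Normalized counts here are reads divided by a size factor from the D. virilis genes. By the paper's methods, every sample had the same number of Kc167 cells and the same number of added D. virilis cells. Normalized counts therefore refer to the cells taken, as far as the cell counts were accurate. Fewer cells holding an mRNA and less of it in each cell cannot be told apart in such bulk samples.

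The Mediator mRNAs that fell after H2A.V RNAi came from the head, the border and the middle, with 1 gene each in the tail and the kinase module. After DOM-A and TIP60 RNAi the calls were middle module genes, and after DOM-B RNAi there was no call. For DOM-A, TIP60 and DOM-B RNAi the numbers of calls were near the shares of all genes given below. Whether the modules differed was not tested in any group. A gene was called when its adjusted p was under 0.01 in the quasi-likelihood test of edgeR, the p-values being adjusted over all 11424 genes by the Benjamini-Hochberg method. After H2A.V RNAi 11 of 28 members were lower and 0 higher, where 12.7% of all genes were called, 11.5% lower and 1.23% higher. After DOM-A RNAi 1 was higher and 3 were lower, with 8.96% and 10.4% of all genes (19.4% in all). After TIP60 RNAi 1 was higher and 4 were lower, with 4.88% and 8.43% of all genes (13.3% in all). After DOM-B RNAi 0 of 28 were called, with 5.07% of all genes, 2.74% higher and 2.33% lower. For that comparison 7 of 28 members and 3202 of 11424 genes had an unadjusted p under 0.05, and DESeq2 called 1 member. In all, 15 members were called in at least 1 comparison with CTRL and 13 in none. The like count over all genes was not made, so whether 15 is many is not known. Standard errors of the members' log2 fold-changes ran from 0.10 to 0.28.

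**Figure D1:**
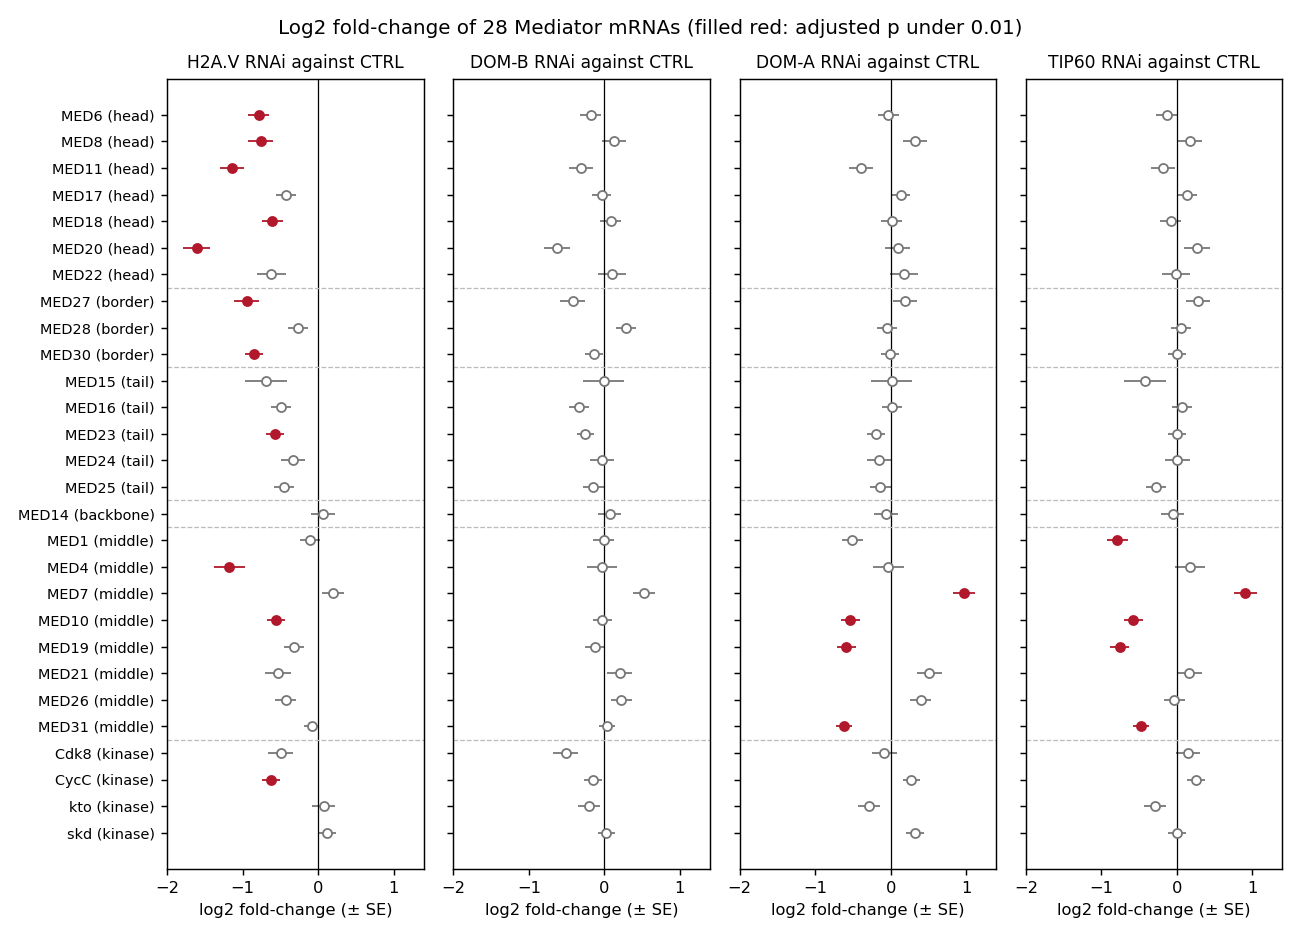
Log2 fold-change (horizontal axis, ± standard error) of the 28 tested Mediator mRNAs, ordered by module, in each of the 4 RNAi groups against CTRL. Filled red points have an adjusted p under 0.01: 11 members lie left of 0 after H2A.V RNAi, and all red points after DOM-A and TIP60 RNAi are middle module genes.

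After H2A.V RNAi 5 of 7 head module genes were lower, with a median log2 fold-change of -0.76. Next to it, 2 of the 3 genes at the head and tail border were lower (median -0.85), against 2 of 8 in the middle (-0.37), 1 of 5 in the tail (-0.49) and 1 of 4 in the kinase module (-0.21). The median of all 28 members was -0.52 and that of all genes tested was -0.22. Whether one module differed from another was not tested. All 3 H2A.V libraries lay below all 3 CTRL libraries for 21 of 28 members, as they did for 29.4% of all genes. The 11 calls became 5 when the libraries were scaled by TMM on the D. melanogaster counts, which put the median of all genes at 0.02 and that of the Mediator genes at -0.27. They ranged from 6 without H2A.V replicate 2, the library that kept more His2Av, or without CTRL replicate 3, to 14 without H2A.V replicate 3. The 5 calls that remained with TMM were MED20 and MED11 in the head, MED27 and MED30 at the border and MED4 in the middle.

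The strongest response belonged to MED20, which pairs with MED18 to form the movable jaw of the head. MED20 is a single-exon gene on chromosome 2L, positions 8071812 to 8072848 of the dm6 build, and the annotated start of Trf lies 47 bases from its own on the opposite strand. It was read at normalized counts of 161, 182 and 164 in CTRL and at 51.7, 47.4 and 66.5 after H2A.V RNAi. The groups were far apart, and no library of another RNAi group was as low as those of H2A.V. The log2 fold-change was -1.61 ± 0.18 (SE, n = 3 per group, edgeR adjusted p = 5.46e-05). MED18 itself went from 260, 373 and 283 to 191, 211 and 195, a log2 fold-change of -0.61 (edgeR adjusted p = 0.00629). The groups did not overlap, but the margin was smaller than for MED20. The MED18 call remained in 2 of 6 fits with a library left out and was lost with TMM on the D. melanogaster counts.

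MED11, which forms a pair with MED22 at the core of the head, stood at 256, 327 and 232 in CTRL and 150, 112 and 109 after H2A.V RNAi. Its log2 fold-change was -1.14 ± 0.16 (edgeR adjusted p = 0.000307). Every H2A.V library was below every CTRL library. MED6, a conserved head subunit, went from 320, 326 and 328 to 200, 176 and 187, a log2 fold-change of -0.79 (edgeR adjusted p = 0.0013). The CTRL libraries were nearly equal for this gene and clear of the H2A.V libraries. MED8, which tethers the MED18 and MED20 pair to the rest of the head, went from 452, 454 and 443 to 240, 206 and 354, a log2 fold-change of -0.76 (edgeR adjusted p = 0.00392). Replicate 3 fell least for MED8, and the groups still did not overlap. With a library left out, the MED8 call remained in 1 of 6 fits and the MED6 call in all 6. Both calls were lost with TMM on the D. melanogaster counts.

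MED17, the scaffold of the head, was not among the calls. It stood at 492, 407 and 479 in CTRL and 390, 289 and 351 after H2A.V RNAi, a log2 fold-change of -0.43 with an edgeR adjusted p of 0.0263. The libraries of the groups did not overlap, and the gene did not pass the threshold. MED22, the remaining head gene, had -0.62 with an adjusted p of 0.0299.

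At the border of head and tail, MED30, a subunit of animal Mediator, went from 406, 488 and 408 to 247, 257 and 217 (log2 fold-change -0.85 ± 0.12, edgeR adjusted p = 0.000272). MED27 went from 168, 183 and 165 to 98.6, 72.9 and 95.8 (log2 fold-change -0.95 ± 0.16, edgeR adjusted p = 0.0011). For both genes the H2A.V libraries sat together, well under CTRL. MED28 was not called in this comparison, at -0.27.

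In the middle module, MED4, the partner of MED9, was lower after H2A.V RNAi. It went from 142, 181 and 164 to 73.9, 56.1 and 83.8 (log2 fold-change -1.18 ± 0.21, edgeR adjusted p = 0.00125). MED10, a small middle subunit, went from 621, 666 and 525 to 346, 456 and 425 (log2 fold-change -0.56, edgeR adjusted p = 0.00508). The groups did not overlap for either gene. The MED10 call remained in 1 of 6 fits with a library left out and was lost with TMM on the D. melanogaster counts. In contrast, MED7, MED31 and MED1 had log2 fold-changes of 0.19, -0.09 and -0.11, and their H2A.V libraries overlapped those of CTRL. MED26, a middle subunit that binds elongation factors, lies on chromosome 4. Its counts went from 1602, 1570.5 and 1556 to 1097, 954 and 1508 (log2 fold-change -0.43, edgeR adjusted p = 0.0378). MED19 had -0.32.

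In the tail, MED23, which in mammals links Mediator to growth factor signalling, went from 600, 621 and 476 to 393, 422 and 327, a log2 fold-change of -0.57 (edgeR adjusted p = 0.00309). All 3 H2A.V libraries were below CTRL. The MED23 call remained in 1 of 6 fits with a library left out and was lost with TMM on the D. melanogaster counts. The other 4 tail genes had fold-changes between -0.70 and -0.33 and none was called. MED15, a classical target of activators, had the largest of these (-0.70, adjusted p = 0.0819), with a wide standard error of 0.28.

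In the kinase module 1 of 4 genes was called. CycC went from 357, 345 and 355 in CTRL to 246, 206 and 237 after H2A.V RNAi, a log2 fold-change of -0.62 ± 0.12 (edgeR adjusted p = 0.00208), and the groups were clearly apart. The CycC call remained in 3 of 6 fits with a library left out and was lost with TMM on the D. melanogaster counts. Cdk8, the kinase that CycC activates, went from 131, 124 and 111 to 83.0, 92.6 and 82.9, a log2 fold-change of -0.50 that missed the threshold (edgeR adjusted p = 0.0395). With reads of both strands counted, the value for Cdk8 was -0.19 (edgeR adjusted p = 0.499). The mRNAs of the large subunits gave small values with overlapping libraries. For skd, CTRL stood at 1845, 1304 and 2037 and H2A.V at 1741, 1505 and 2384 (log2 fold-change 0.12 ± 0.12, edgeR adjusted p = 0.513). For kto, CTRL stood at 2557, 1956 and 1685 and H2A.V at 2381, 2756 and 1492 (0.07 ± 0.15, edgeR adjusted p = 0.775). The backbone gene MED14 likewise gave a small value, at 935, 647 and 744 in CTRL and 880.5, 936 and 638 after H2A.V RNAi (0.07 ± 0.15, edgeR adjusted p = 0.808).

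**Figure D2:**
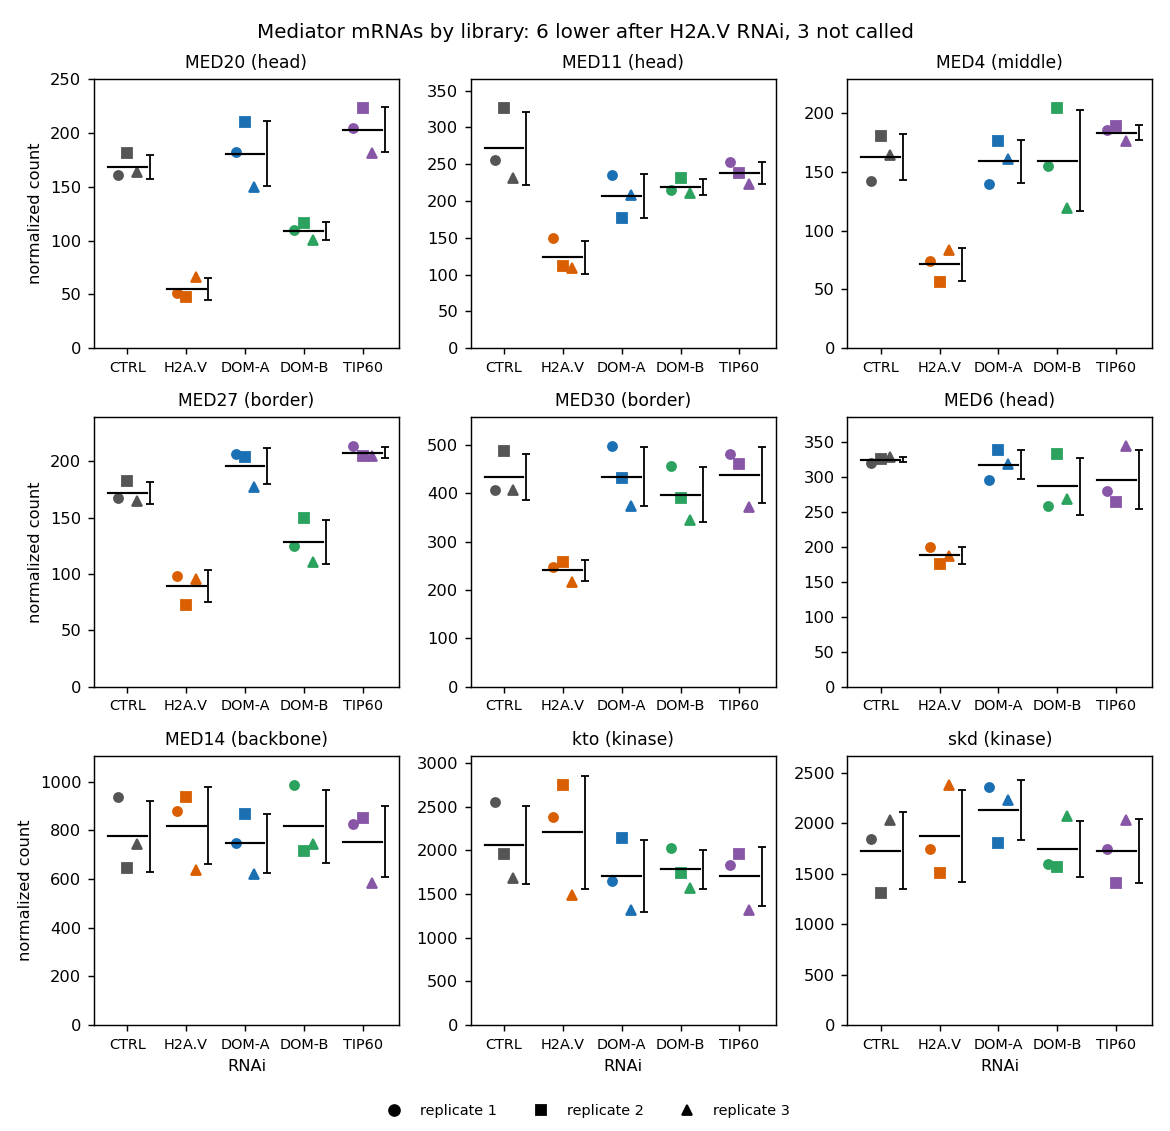
Normalized count (vertical axis) of 9 Mediator mRNAs in each library, with marker shape giving the replicate, the horizontal line the mean and the bar the SD of 3 libraries. For MED20, MED11, MED4, MED27, MED30 and MED6 the H2A.V libraries lie below all CTRL libraries, whereas for MED14, kto and skd they overlap CTRL.

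The members that fell were mostly short genes, a property the choice of members did not use. Of 14 members with an exonic length under 1200 nt, 9 were lower after H2A.V RNAi, and of 5 members of 5000 nt or more (MED1, MED14, MED26, kto and skd) 0 were. Among all protein-coding genes tested, 18.6% of 2338 genes in the first length class and 4.23% of 1372 in the last were lower. The median log2 fold-change was -0.62 in the short members and 0.07 in the long ones, beside -0.31 and -0.17 in all genes of those classes. Across genes, which are not independent replicates and share the same libraries, Spearman's rho between fold-change and exonic length was 0.46 over 28 members and 0.10 over 10105 protein-coding genes. The 5 short members not called were MED7, MED21, MED22, MED28 and MED31. All border genes and most head genes were under 1200 nt, and no head, border or tail gene reached 5000 nt. Length and module therefore cannot be told apart in these members. After DOM-A, TIP60 and DOM-B RNAi Spearman's rho over the members was -0.14, -0.27 and -0.21. Over all protein-coding genes it was 0.09, 0.03 and -0.02 in the same order.

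**Figure D3:**
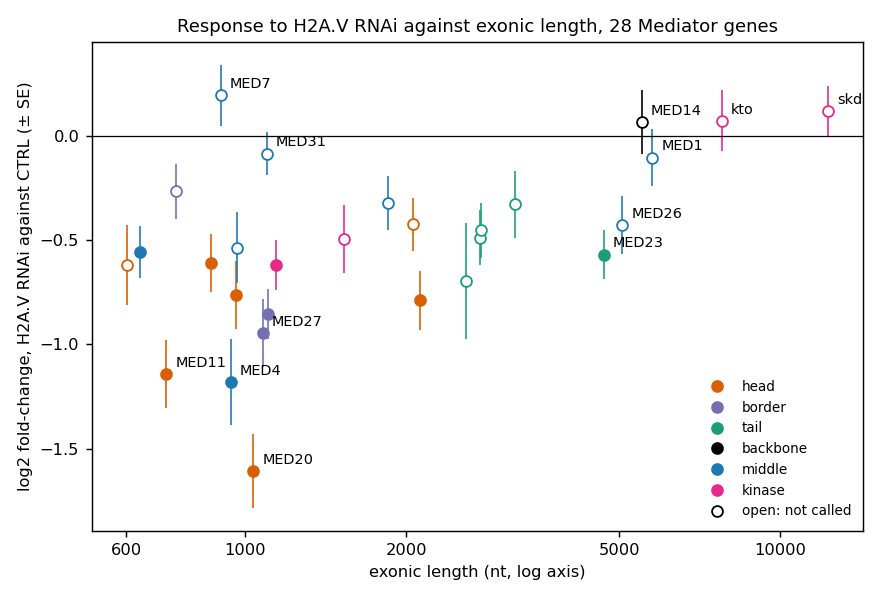
Log2 fold-change after H2A.V RNAi against CTRL (vertical axis, ± standard error) against exonic length (horizontal axis, nt, log scale) for the 28 tested Mediator genes, coloured by module, with filled points for genes of adjusted p under 0.01. Of the 11 filled points 9 lie under 1200 nt, and the 5 genes of 5000 nt or more are all open.

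After DOM-A RNAi all 4 calls fell in the middle module, in both directions. Whether the middle module differed from the others was not tested. MED7, which forms the hinge of the middle module with MED21, rose. The gene lies on chromosome 3R, positions 10760071 to 10761032 of dm6. It was read at 328, 324 and 381 in CTRL, 611, 742 and 680 after DOM-A RNAi, 599, 730 and 620 after TIP60 RNAi, 449, 618 and 432 after DOM-B RNAi and 370, 353 and 459 after H2A.V RNAi. Every DOM-A, TIP60 and DOM-B library lay above all CTRL libraries. The log2 fold-change was 0.97 ± 0.15 after DOM-A RNAi (edgeR adjusted p = 0.000258) and 0.91 ± 0.15 after TIP60 RNAi (adjusted p = 0.000627). After DOM-B RNAi it was 0.53 ± 0.15, with an adjusted p of 0.0304.

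MED31, MED10 and MED19 had lower counts in the same groups. MED31, a small conserved subunit with the highest read density of the family in CTRL (986 ± 144 normalized counts per kilobase, SD, n = 3), stood at 1201, 1143 and 904 in CTRL, 751, 716 and 637 after DOM-A RNAi and 752, 859 and 718 after TIP60 RNAi. The DOM-A and TIP60 libraries were all below CTRL, and those of DOM-B (1081, 1306 and 944) overlapped it. Its log2 fold-change was -0.62 ± 0.11 after DOM-A RNAi (edgeR adjusted p = 0.000604) and -0.47 ± 0.10 after TIP60 RNAi (adjusted p = 0.00487). The call after DOM-A RNAi remained in all 6 fits with a library left out. That after TIP60 RNAi remained in 0 of 6, with edgeR adjusted p up to 0.0407. In the annotation used here MED31 overlaps slx1 on the same strand, so some of its reads may have been left uncounted.

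MED10, which was also among the genes lower after H2A.V RNAi, stood at 429, 445 and 378 after DOM-A RNAi and 424, 401 and 382 after TIP60 RNAi, against the CTRL values given for it above. Both groups were below CTRL in every library. The log2 fold-changes were -0.53 (edgeR adjusted p = 0.00486) and -0.58 (adjusted p = 0.0039). When any 1 of the 6 libraries was left out, MED10 lost its call in either comparison, with adjusted p up to 0.0279 and 0.0257.

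MED19, a subunit of the hook of the middle module, stood at 917, 938 and 949 in CTRL, 577, 613 and 685 after DOM-A RNAi and 503.5, 479 and 687 after TIP60 RNAi. CTRL was tight and all 6 libraries were below it. The log2 fold-changes were -0.59 ± 0.13 (edgeR adjusted p = 0.00356) and -0.76 ± 0.13 (adjusted p = 0.000924). The call after TIP60 RNAi remained in all 6 fits with a library left out, whereas that after DOM-A RNAi remained in 1 of 6.

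MED1, the subunit that nuclear receptors contact, was called after TIP60 RNAi and missed the threshold after DOM-A RNAi. It stood at 1176, 1010 and 967 in CTRL, 712, 536 and 578.5 after TIP60 RNAi and 686, 908.5 and 623 after DOM-A RNAi. All 6 values were below CTRL, with replicate 2 of DOM-A the closest to it. The log2 fold-change was -0.79 ± 0.14 after TIP60 RNAi (edgeR adjusted p = 0.00106) and -0.51 ± 0.14 after DOM-A RNAi (adjusted p = 0.0118). DESeq2 called the latter too, at 0.00352.

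**Figure D4:**
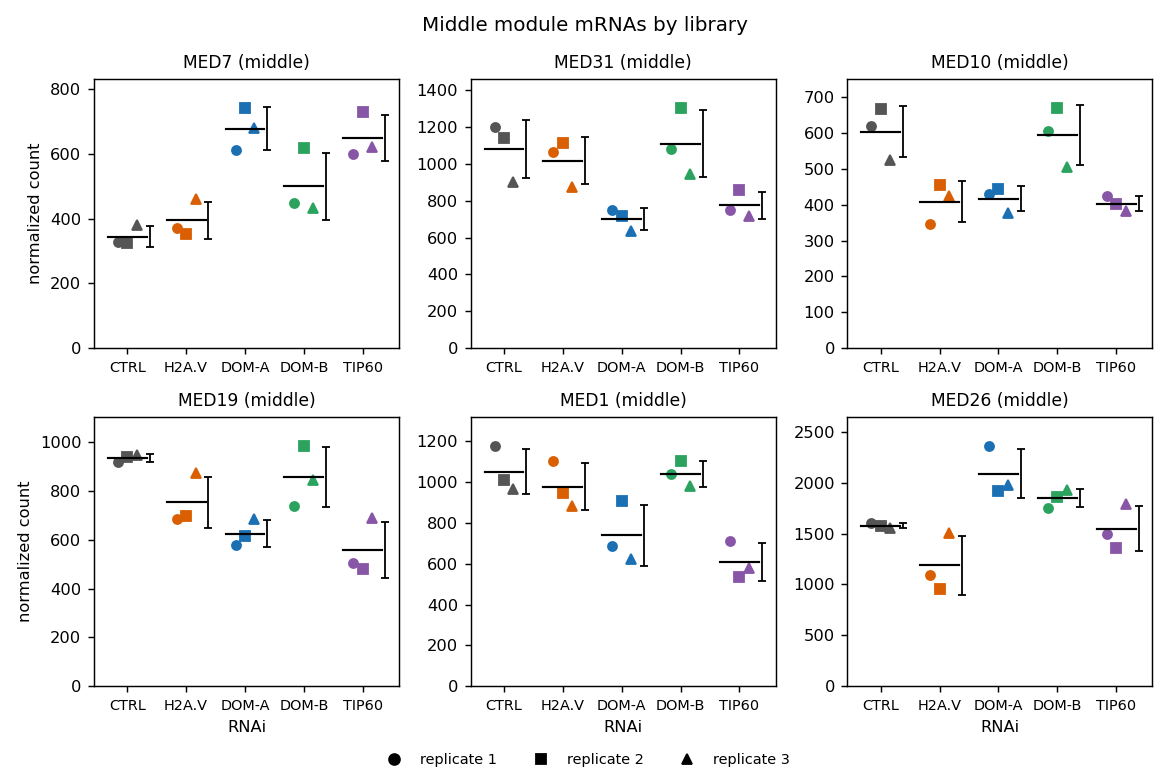
Normalized count (vertical axis) of 6 middle module mRNAs in each library, drawn as in the plot of the H2A.V response. MED7 stands higher in the DOM-A and TIP60 libraries than in CTRL, MED31, MED10, MED19 and MED1 stand lower there, and MED26 is shown as a member without a call against CTRL.

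Outside the middle module no member was called after DOM-A or TIP60 RNAi. In the head the fold-changes ran from -0.39 to 0.33 after DOM-A RNAi and from -0.19 to 0.27 after TIP60 RNAi. The kinase genes had -0.09 (Cdk8), 0.28 (CycC), -0.28 (kto) and 0.32 (skd) after DOM-A RNAi, and 0.15, 0.26, -0.29 and 0.01 in the same order after TIP60 RNAi. MED14 had -0.06 in both comparisons, and MED17 had 0.13 and 0.14. The medians over the 28 members were -0.02 and 0.00, beside 0.03 and -0.04 over all genes. Leaving out any 1 library left 2 or 3 of the 4 DOM-A calls in number and 3 of the 5 TIP60 calls. Without the replicate block in the fit the calls were 2 and 3. Without replicate 2 of TIP60, the library with the lowest hemocyte marker sum of that group, 3 members were called.

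DOM-A and TIP60 RNAi were also compared directly, since the proteins share a complex. Of 28 members 0 were called by edgeR, with 0.0175% of all genes. DESeq2 called 0, and 2 of 28 members and 1491 of 11424 genes had an unadjusted p under 0.05. MED7 differed by 0.06 ± 0.14 on the log2 scale. Both groups were set against the same CTRL libraries above, so their fold-changes share that error.

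Between the isoforms, 3 of 28 members were called (17.4% of all genes), of which 1 was higher (7.28% of all genes) and 2 were lower (10.1%) after DOM-A RNAi than after DOM-B RNAi. MED31 was lower after DOM-A than after DOM-B RNAi by a log2 fold-change of -0.65 ± 0.11 (edgeR adjusted p = 0.000482), and no DOM-A library reached a DOM-B library. MED10 was lower by -0.51 (edgeR adjusted p = 0.00716). MED20 was higher after DOM-A RNAi by 0.73 ± 0.17 (edgeR adjusted p = 0.00603), at 182, 211 and 150 against 110, 116 and 100.4 after DOM-B RNAi. The MED20 libraries of DOM-B all lay below CTRL as well, with a log2 fold-change of -0.63 that missed the threshold (adjusted p = 0.0269) and was called by DESeq2 (adjusted p = 0.00627). With only the DOM-A and DOM-B libraries in the fit, 0 members were called, and leaving out 1 library left 1 to 3.

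H2A.V and DOM-B RNAi were compared because DOM-B is the isoform linked to H2A.V incorporation. Of 28 members 11 were higher after DOM-B than after H2A.V RNAi (10.2% of all genes) and 0 lower (0.797%). They were MED6, MED8, MED11, MED18 and MED20 in the head, MED4, MED10, MED21 and MED26 in the middle, and MED28 and MED30 at the border. The largest difference was that of MED4, 1.15 ± 0.21 on the log2 scale (edgeR adjusted p = 0.0021), from 155, 204 and 119 after DOM-B RNAi to the H2A.V values given above. MED30 differed by 0.72 (edgeR adjusted p = 0.00145) and MED8 by 0.89 (adjusted p = 0.0021). No library of DOM-B overlapped one of H2A.V for these 3 genes. MED26 differed by 0.65 (edgeR adjusted p = 0.005) and stood at 1753, 1861 and 1926 after DOM-B RNAi. The median over the members was 0.50, beside 0.30 over all genes. No tail or kinase gene was called. For the count of 11, leaving out replicate 1 of DOM-B or of H2A.V left 0 calls, and leaving out replicate 2 of either left 4 and 1.

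Other lists of the initiation machinery are given with the share of all genes called in the same comparison and direction. ix, which encodes the MED29 subunit and is not in the list of 29, had a log2 fold-change of -0.45 after H2A.V RNAi (edgeR adjusted p = 0.0674) and was not called in any comparison. After H2A.V RNAi (11.5% of all genes lower) 3 of 11 tested RNA polymerase II subunit genes were lower, namely Polr2H (-0.78), Polr2I (-0.52) and Polr2J (-0.78), with a list median of -0.52. Of 14 general initiation factor genes 1 was lower, TfIIFbeta (-0.65), and of 13 TFIID genes 4 were lower, namely Taf6 (-0.69), Taf10b (-0.91), Taf13 (-0.56) and Taf9 (-0.57). After DOM-A RNAi (10.4% of all genes lower) the calls were Polr2J (-0.47), Taf6 (-0.42) and CycT (-0.76), the cyclin of the elongation kinase P-TEFb and 1 of 7 genes in the list of transcription kinases and cyclins. After TIP60 RNAi (8.43% lower) the call was CycT (-0.52). After DOM-B RNAi Polr2K was higher (0.93, with 2.74% of all genes higher), and Tfb1 (-0.59) and Taf6 (-0.82) were lower (2.33%).

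The polymerase list gave more calls between DOM-B and H2A.V RNAi. There 7 of 11 genes were higher after DOM-B RNAi (10.2% of all genes), Polr2E, Polr2F, Polr2H, Polr2I, Polr2J, Polr2K and Polr2L, with differences from 0.48 (Polr2I) to 1.23 (Polr2E) and a list median of 0.71. The other calls there were hay (0.59) of 14 initiation factor genes, Taf10b (0.86) and Taf13 (0.59) of 13 TFIID genes, and CycK (0.88) of 7 in the kinase and cyclin list, all higher after DOM-B RNAi. In the comparison of the isoforms, Polr2H (-0.95), Polr2J (-0.55), Polr2K (-1.03), TfIIA-S (-0.68) and CycT (-0.58) were lower after DOM-A RNAi (10.1% of all genes), and TfIIA-L (0.70) and Taf6 (0.40) were higher (7.28%).

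Reads on the strand opposite to the members were looked at separately, since the libraries record strand. A gene met the criterion used when all 3 libraries of an RNAi group lay above all CTRL libraries and the group mean was at least 2 times that of CTRL and at least 10 normalized counts. Of all genes 2.75% met it after DOM-A, 2.34% after DOM-B, 1.2% after H2A.V and 2% after TIP60 RNAi. Among the 28 members MED7 met it after DOM-A, DOM-B and TIP60 RNAi, MED23 after DOM-A RNAi, MED10 after TIP60 RNAi and Cdk8 after H2A.V RNAi.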

How the data were processed

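RNA-seq of Kc167 cells with D. virilis spike-in cells was analysed from gene counts deposited by the authors. They aligned 50 nt reads with STAR (version 2.5.3a) to each genome, dm6 for D. melanogaster, and counted reads per gene, of which the column for the transcribed strand was used. Lengths and positions came from a newer annotation of the same build. Counts of all 15 libraries were fitted with edgeR (version 4.0.16) in R (version 4.3.3), with library sizes from D. virilis median-of-ratios size factors, the replicate number as a block and genes with at least 1 read in 6 samples. P-values were adjusted over all genes tested (Benjamini-Hochberg, threshold 0.01) and measure the spread between these samples. The block follows the batch covariate of the study's methods. Deviations from group means correlated at 0.22 on average (0.04 to 0.44) in 30 same-numbered library pairs and at -0.11 in 60 others. The second value largely follows from the first, because deviations cancel out within each group. DESeq2 (version 1.42.0), other scalings and filters, and fits without the block or without single libraries were alternatives. The script was tested on simulated data. Per-library values were given for members called in any of 7 comparisons, limited to the 16 with the smallest adjusted p, the 4 kinase genes, MED14 and MED17; of the other members those singled out were chosen after their values were seen. Members and lists were chosen with earlier results of these data known.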

Additional observations from a re-analysis of the deposited data

Results flagged for a closer look

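Reads on the strand opposite to a Mediator gene were not used in the comparisons. They made up 2.65% to 3.31% of reads per library over all genes. The members that stood above CTRL there, by the criterion given in the report, are listed with their mean normalized counts. For MED7 the opposite-strand mean was 28.1 with DOM-A depleted, 13.4 with DOM-B depleted and 17.1 with TIP60 depleted, against 2.67 in CTRL. The DOM-A libraries stood at 27.6, 26.0 and 30.8 and the CTRL libraries between 1.1 and 4.67, and no annotated gene overlaps MED7 on that strand. These reads amounted to 4.10% of the MED7 reads on the transcribed strand after DOM-A RNAi and 0.80% in CTRL. For Cdk8 the mean was 25.3 after H2A.V RNAi, against 5.66 in CTRL. These reads amounted to 29.9% of the Cdk8 reads on the transcribed strand after H2A.V RNAi and 4.86% in CTRL, and no annotated gene overlaps Cdk8 on that strand. For MED10 it was 10.7 after TIP60 RNAi, against 0.67, and for MED23 it was 12.4 after DOM-A RNAi, against 6.03. These differences were not tested.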

How the results depend on the processing

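Single genes were followed through the alternatives for 21 members, and none of these changed direction with a call. Of these 21, called under every alternative tried at the 0.01 threshold, with or without any 1 library, were MED7 after DOM-A and TIP60 RNAi, MED31 after DOM-A RNAi, MED1 and MED19 after TIP60 RNAi, and MED20, MED11, MED4 and MED30 after H2A.V RNAi. Scaling by the D. melanogaster counts moved the median of all genes after H2A.V RNAi from -0.22 to 0.02 (TMM) or 0.07 (median of ratios), and total D. virilis counts moved it to -0.02. The Mediator median followed, from -0.52 to -0.27, -0.22 and -0.32, and the calls went from 11 to 5, 5 and 4. At a threshold of 0.05 they were 18. For DOM-B against H2A.V the Mediator median went from 0.50 to 0.19 and 0.20 with the D. melanogaster scalings, and the calls from 11 to 2 and 2, to 6 with total D. virilis counts and to 0 with only those groups in the fit. For DOM-A against DOM-B the 3 Mediator calls became 6 and 6 with these scalings, 5 with total D. virilis counts (median -0.17), 5 with at least 10 counts in every sample, 7 with DESeq2, 8 at 0.05 and 0 with only those groups. For DOM-B RNAi the calls became 1 with TMM, total D. virilis counts (median 0.12) and DESeq2 each, 2 with only those groups and 2 at 0.05. For DOM-A RNAi they became 7 at 0.05. The TIP60 median became 0.0627 (TMM), 0.11 (median of ratios) and -0.15 (total D. virilis counts), and that of DOM-A against TIP60 -0.0551 (TMM) and 0.0745 (total D. virilis counts). The share of all genes called under each alternative is not given here, so these counts show only how the Mediator calls moved. The cause of these moves was not tested.

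Without the replicate block the Mediator calls were 2 after DOM-A RNAi, 3 after TIP60 RNAi, 8 after H2A.V RNAi, 0 after DOM-B RNAi, 2 for DOM-A against DOM-B and 6 for DOM-B against H2A.V. With 1 library left out, the Mediator calls ranged from 2 to 3 after DOM-A RNAi, 3 to 3 after TIP60 RNAi, 6 (without CTRL replicate 3 or H2A.V replicate 2) to 14 (without H2A.V replicate 3) after H2A.V RNAi, 0 to 0 after DOM-B RNAi, 1 to 3 for DOM-A against DOM-B and 0 to 11 for DOM-B against H2A.V. The Mediator medians ranged from -0.07 to 0.02 after DOM-A RNAi, -0.07 to -0.04 after DOM-B RNAi, -0.59 to -0.47 after H2A.V RNAi, -0.00564 to 0.0356 after TIP60 RNAi, 0.01 to 0.15 for DOM-A against DOM-B, -0.0225 to 0.0717 for DOM-A against TIP60 and 0.39 to 0.55 for DOM-B against H2A.V. With 3 libraries per group and as few as 63 reads for a member, small changes could go undetected.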

Other observations

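MED15, the tail subunit, had normalized counts of 1683 and 1705 in replicates 1 and 3 of TIP60 RNAi and 640 in replicate 2, below every other library of the series. The same library stood apart in the hemocyte collagen gene Col4a1 (3011, against 24511 and 11864 in the other TIP60 libraries). The MED15 log2 fold-change after TIP60 RNAi was -0.42 (edgeR adjusted p = 0.297). The Mediator genes together took between 0.119% and 0.149% of D. melanogaster gene reads in all libraries.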
